A study of Mus musculus with 52 samples.

Results

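The RNA of 10 genes that define the endocrine cells of the anterior pituitary was followed across sorted cells of both pituitary lobes. They were listed by name and comprise 7 hormone genes (Gh, Prl, Pomc, Cga, Lhb, Fshb and Tshb) and 3 lineage factors (Pou1f1, Tbx19 and Nr5a1), out of 49509 genes in the summed tables, and all 10 passed the filter on low counts. TPM (a level corrected for transcript length and scaled to a fixed total in each library) and estimated counts were summed over the transcripts of each gene. The question asked of these genes was how much hormone RNA was present in each sorted fraction of each lobe, and in which mix, in WT mice and in mice with stabilized beta-catenin in endothelial cells (ECs).

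The study sorted cells with and without GFP from both pituitary lobes and the cerebellum of male mice that carry a Tie2-GFP transgene, in which the Tie2 promoter drives GFP in ECs. The WT mice carried Tie2-GFP. The stabilized mice carried Tie2-GFP, Pdgfb-CreER and 1 Ctnnb1 allele with loxP sites around its exon 3 (BcatEx3fl in the labels), whose removal makes a beta-catenin protein that resists degradation, and received 4-hydroxytamoxifen at postnatal day 10. Pdgfb-CreER is active in ECs and recombination was mosaic, and the genotypes of the sorted cells also differ in the Cre transgene and the drug. Mice were 30 to 90 days old, and each pituitary library came from pools of 20 to 30 mice, so a replicate is a pool and not an animal. Each of the 8 pituitary groups (2 lobes, 2 genotypes and 2 GFP fractions) had 2 RNA libraries, 16 in all. A further 8 sorted cerebellum libraries, 16 RiboTag libraries (input and ribosome-bound RNA from choroid plexus and cortex) were used for the same genes, as were 12 ATAC-seq libraries of GFP-positive cells. The RiboTag mice, 6 to 8 weeks old, carried an Rpl22 RiboTag allele that tags ribosomes after Cre recombination, and both genotypes carried Pdgfb-CreER and received 4-hydroxytamoxifen, so that only the BcatEx3fl allele was named as differing between them.

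The anterior pituitary holds several endocrine cell types that are told apart by their hormone. Somatotropes make growth hormone, lactotropes prolactin, corticotropes the proopiomelanocortin precursor of ACTH, gonadotropes luteinizing and follicle-stimulating hormone, and thyrotropes thyrotropin. The last 3 hormones share an alpha subunit, encoded by Cga, and differ in their beta subunit (Lhb, Fshb and Tshb). Pou1f1 (Pit1) is required for somatotropes, lactotropes and thyrotropes, Tbx19 (Tpit) for the Pomc-expressing lineages, and Nr5a1 (SF-1) for gonadotropes. Melanotropes of the intermediate lobe, which lies between the lobes and is attached to the posterior one, also express Pomc and Tbx19. These hormone genes are among the most abundant transcripts of the gland.

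On the GRCm38 build with GENCODE annotation, Gh lies at chr11:106300271-106301865 on the minus strand, Prl at chr13:27057570-27065205 on the plus strand, Pomc at chr12:3954951-3960642 on the plus strand, and Cga at chr4:34893779-34907370 on the plus strand. Lhb is at chr7:45420820-45421897 on the plus strand, Fshb at chr2:107056140-107059656 on the minus strand and Tshb at chr3:102775465-102782718 on the minus strand. Pou1f1 is at chr16:65520511-65535005 on the plus strand, Tbx19 at chr1:165137855-165160773 on the minus strand and Nr5a1 at chr2:38692656-38714542 on the minus strand. The positions of 7 genes were shared with another annotated gene: Prl with Gm47888, Cga with Platr9, Lhb with Ruvbl2, Tshb with Tspan2, Pou1f1 with Gm49631, Tbx19 with Gm16550 and Nr5a1 with Nr5a1os, and low values of these members cannot be told apart from reads of the overlapping gene where the sequence is shared.

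Promoter sequence was available from RefSeq (GRCm38.p6) for 8 of the 10 genes (all but Gh and Nr5a1), as windows of 300 bases with 250 bases before the start of transcription. Those of Prl, Pomc, Lhb and Cga are shown because these genes carry the results below and their windows hold words known as binding sites of the lineage factors. Capitals mark ATGNATA (a Pou1f1 word, in Prl), AAGGNCA (the word of Nr5a1 and related receptors, in Pomc, Lhb and Cga) and the core promoter word TATAAA. Each word was searched on both strands, so a match may be printed as its reverse complement.
Prl, chr13:27057320-27057619, plus strand: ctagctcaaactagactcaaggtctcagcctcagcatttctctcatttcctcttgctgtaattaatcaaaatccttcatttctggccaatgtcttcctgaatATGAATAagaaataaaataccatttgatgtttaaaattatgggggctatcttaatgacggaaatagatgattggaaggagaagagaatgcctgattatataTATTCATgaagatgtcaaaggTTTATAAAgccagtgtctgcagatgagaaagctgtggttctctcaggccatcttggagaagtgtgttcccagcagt
Pomc, chr12:3954695-3954994, plus strand: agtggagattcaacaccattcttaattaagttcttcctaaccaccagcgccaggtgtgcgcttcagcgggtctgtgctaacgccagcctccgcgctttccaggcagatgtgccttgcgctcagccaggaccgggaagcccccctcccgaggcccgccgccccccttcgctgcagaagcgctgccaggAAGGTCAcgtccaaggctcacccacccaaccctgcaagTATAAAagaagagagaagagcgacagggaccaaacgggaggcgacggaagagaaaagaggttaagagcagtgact
Lhb, chr7:45420696-45420995, plus strand: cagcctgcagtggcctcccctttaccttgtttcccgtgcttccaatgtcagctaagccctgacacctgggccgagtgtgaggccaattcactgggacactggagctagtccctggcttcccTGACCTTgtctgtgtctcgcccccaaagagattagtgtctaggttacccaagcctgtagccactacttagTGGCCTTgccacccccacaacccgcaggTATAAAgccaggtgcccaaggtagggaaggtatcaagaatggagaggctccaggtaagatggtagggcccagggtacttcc
Cga, chr4:34893529-34893828, plus strand: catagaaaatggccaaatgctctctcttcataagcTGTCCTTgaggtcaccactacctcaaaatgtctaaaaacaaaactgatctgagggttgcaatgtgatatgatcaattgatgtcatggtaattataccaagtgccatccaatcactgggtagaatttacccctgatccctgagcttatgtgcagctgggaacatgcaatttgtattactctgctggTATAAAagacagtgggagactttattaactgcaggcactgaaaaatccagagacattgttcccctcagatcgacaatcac

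The Prl window held ATGNATA at positions -148 and -47 from the start. The Lhb window held AAGGNCA at -129 and -59, the Cga window at -215 and the Pomc window at -63. Among all 32851 promoter windows of this length, 8.84% held ATGNATA, 13.6% held TATAAA and 20.3% held AAGGNCA. Of the 8 genes, 2 held ATGNATA (Prl and Pou1f1), 3 held AAGGNCA, and 7 held TATAAA, the exception being Tbx19. The Tbx19 word TCACACC (3.98% of windows) and the homeobox word TAATCC (7.06%) were in none of the 8. ATGNATA and TATAAA can share bases. These matches describe the sequence only.

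The 16 pituitary libraries held 17260078 to 37529274 estimated counts, with a median of 27034473. The 10 genes of an endothelial marker list had a summed level of 2.55 to 35.3 TPM in the 8 GFP-negative libraries and 2329 to 6695 TPM in the 8 GFP-positive libraries, so the fractions did not overlap. The labels of 1 library conflict: stabilized anterior pituitary GFP-positive replicate 2 is titled as anterior, but its tissue tag names the posterior lobe. It was kept as anterior by its title. Its Gh level was 2676 TPM, against 3467 TPM in its partner and 0.190 to 11.0 TPM in the 4 posterior GFP-positive libraries. In the posterior GFP-negative libraries the melanotrope factor Pax7 stood at 36.7 and 50.4 TPM in WT and 9.23 and 11.3 TPM in stabilized mice, against 0.866 to 2.18 TPM in the anterior ones, and Avp and Oxt, whose mRNAs are made by hypothalamic neurons, were listed at 0 in both WT posterior GFP-negative libraries. In the stabilized posterior GFP-negative libraries Avp stood at 23.1 and 11.7 TPM and Oxt at 17.4 and 3.62 TPM, so the posterior fractions of the genotypes also differed in these genes, and the part of this in the posterior results was not tested. The posterior fraction is named here by its label, and its melanotrope genes are given with its hormones below. Nothing in the sources places the 2 replicates of a group in separate experiments beyond separate pools, and p-values measure the spread between these pools.

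In GFP-negative cells of the anterior pituitary, hormone RNA took 4.37% and 6.04% of the library in WT and 3.39% and 6.02% in stabilized mice, as the summed TPM of the 7 hormone genes. Prl, the hormone of lactotropes, was the highest, with 31239 and 45324 TPM in WT and 16781 and 24446 TPM in stabilized mice. Pomc was at 6188 and 6604 TPM in WT and 7469 and 16332 TPM in stabilized mice. Gh was at 3600 and 4640 TPM in WT and 7456 and 14329 TPM in stabilized mice. In TPM the order of Pomc over Gh held in both WT libraries and, by narrower margins, in both stabilized ones, and the values of these neighbours overlapped across libraries. In estimated counts summed over both libraries, this order held in WT (500300 against 275366). It turned in stabilized mice, where Gh had 1201559 counts, Prl 1066526 and Pomc 914202.

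Cga, the shared alpha subunit, followed with 2085 and 3008 TPM in WT and 1749 and 4213 TPM in stabilized mice. The beta subunits lay far below it. Fshb was at 226 and 318 TPM in WT and 230 and 386 TPM in stabilized mice. Tshb was at 240 and 306 TPM in WT and 85.1 and 278 TPM in stabilized mice. Lhb was at 94.1 and 188 TPM in WT and 131 and 230 TPM in stabilized mice. These 3 beta subunit genes overlapped each other in level and cannot be ordered beyond their spread.

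Among the lineage factors, Pou1f1 was the highest in the anterior GFP-negative cells, at 123 and 192 TPM in WT and 73.6 and 76.3 TPM in stabilized mice. In scaled counts Pou1f1 differed between the genotypes by -0.16 ± 1.08 on the log2 scale (edgeR), so the gap in TPM was not found by the count test. Tbx19 was at 12.3 and 21.1 TPM in WT and 10.2 and 14.0 TPM in stabilized mice. Nr5a1 was the lowest, at 2.19 and 7.04 TPM in WT and 2.49 and 3.54 TPM in stabilized mice. The 3 factors did not overlap in level across these 4 libraries.

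**Figure D1:**
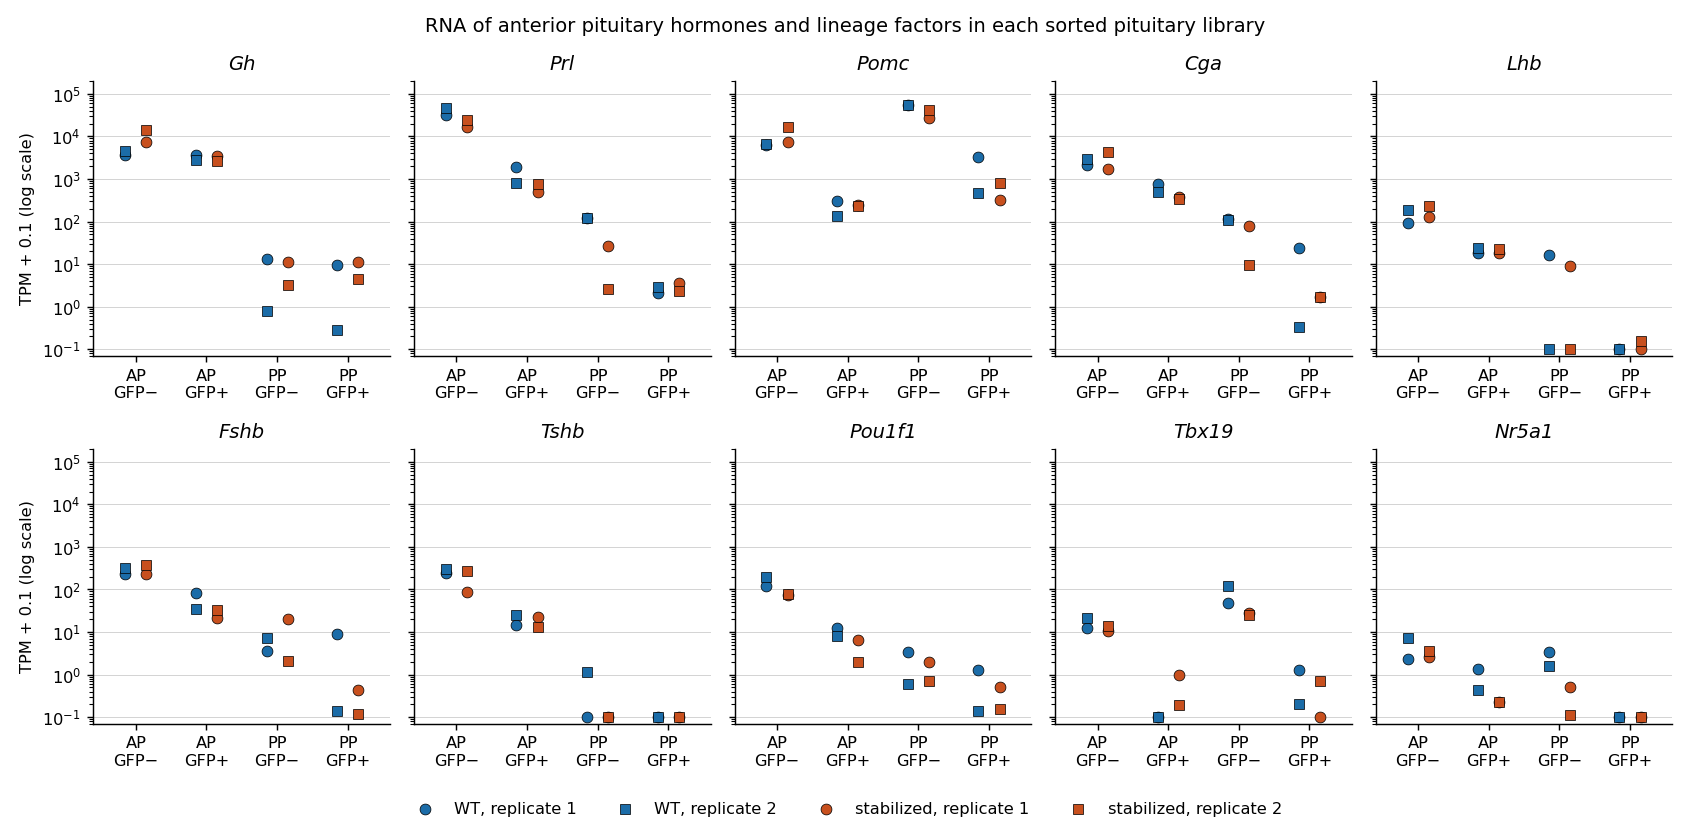
Level of each gene in every sorted pituitary library, as TPM with 0.1 added on a log axis. AP and PP are the anterior and posterior pituitary, GFP− and GFP+ the GFP-negative and GFP-positive fractions, colours the genotypes and point shapes the replicates. Prl and the other anterior hormones are highest in AP GFP−, Pomc and Tbx19 in PP GFP−, and Gh differs least between the AP fractions.

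GFP-positive cells of the anterior pituitary carried less hormone RNA, but none of the 7 hormone genes was at 0 there. Summed hormone RNA took 0.683% and 0.439% of the library in WT and 0.465% and 0.407% in stabilized mice. Prl was at 1937 and 816 TPM in WT and 502 and 746 TPM in stabilized mice, and Pomc at 300 and 133 TPM and at 240 and 231 TPM. Gh was at 3698 and 2852 TPM in WT and 3467 and 2676 TPM in stabilized mice, within the range set by the WT GFP-negative libraries or below it. Over all 16 pituitary libraries, the geometric mean of summed hormone TPM was 45547 in GFP-negative and 1996 in GFP-positive cells, a 22.8-fold difference (exact permutation test within lobe and genotype, two-sided, p = 0.00154, the smallest this design gives), and GFP-negative was higher in each of the 8 pairs of like-numbered libraries. This value pools the lobes, and the summed level in GFP-positive cells was a median of 10.5% of that in GFP-negative cells in the anterior and of 1.61% (0.846 to 6.21%) in the posterior lobe. Without the library whose labels conflict, the fold was 22.4 (exact permutation test, p = 0.0015). In bulk RNA, fewer cells of a type and less RNA per cell cannot be told apart.

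Gene by gene, 3 of the 10 genes were called higher in GFP-negative cells of the WT anterior pituitary (edgeR quasi-likelihood test, Benjamini-Hochberg adjusted p under 0.05 over 21324 genes and a fold of at least 2), where 5.87% of all genes tested were called in that direction. Prl differed by 4.87 ± 0.96 on the log2 scale (SE, n = 2 against 2, edgeR adjusted p = 0.00277) and Pomc by 5.05 ± 1.37 (edgeR adjusted p = 0.0206). Tbx19 had 3317 estimated counts in the GFP-negative and 0 in the GFP-positive WT libraries, at least 1015-fold higher when set against 3 counts over the group. Its edgeR adjusted p was 0.00158. The call of Pomc was lost without WT GFP-positive replicate 2 (4.42, edgeR adjusted p = 0.0971).

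The remaining 7 genes did not pass in the WT anterior pituitary. Gh differed by 0.44 ± 1.19 on the log2 scale (edgeR adjusted p = 0.939), the smallest value of the 10. Cga differed by 1.95, Fshb by 1.98, Nr5a1 by 2.46, Lhb by 2.73, Pou1f1 by 3.76 and Tshb by 3.83, each with GFP-negative higher. Pou1f1 lay at the threshold, with an edgeR adjusted p of 0.05 after rounding. The median of the 10 genes was 3.25, beside 0.03 over all genes tested.

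In the stabilized anterior pituitary 4 of the 10 genes were called, against 3.16% of all genes in that direction. Prl differed by 5.35 ± 0.98 (edgeR adjusted p = 0.002) and Pomc by 6.31 ± 1.46 (edgeR adjusted p = 0.00905). Pou1f1 differed by 4.58 ± 1.25 (edgeR adjusted p = 0.0261) and Tbx19 by 5.05 ± 1.42 (edgeR adjusted p = 0.0395). Gh differed by 2.67 ± 1.26 and did not pass (edgeR adjusted p = 0.262). The calls of Pou1f1 and Tbx19 were lost without the library whose labels conflict (4.03 and 4.20, edgeR adjusted p = 0.164 and 0.135), and also without GFP-negative replicate 1 (Pou1f1, 0.0589), GFP-positive replicate 1 (Pou1f1, 0.0668) or GFP-negative replicate 2 (Tbx19, 0.0598). The call of Tbx19 was also lost with the replicate number as a block. Prl and Pomc passed without any single library of this comparison.

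**Figure D2:**
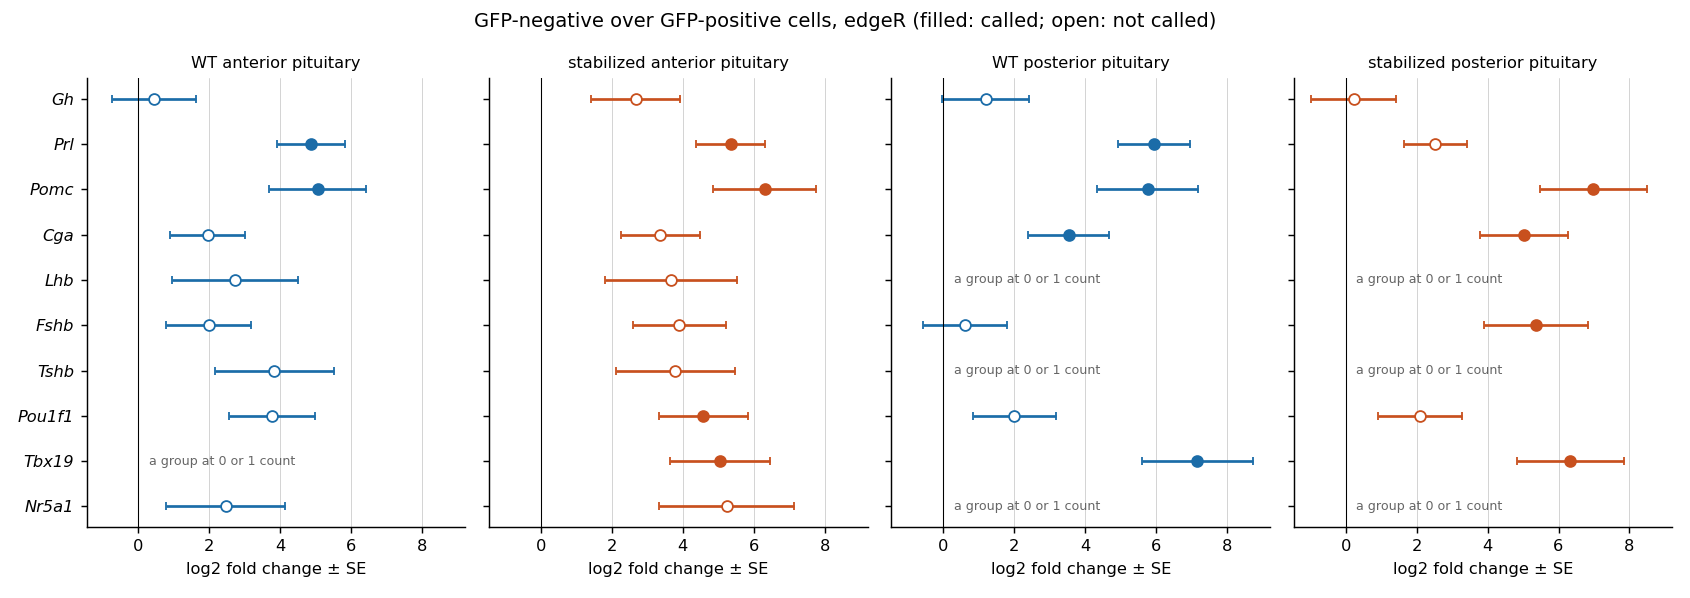
Difference of each gene between GFP-negative and GFP-positive cells in the 4 lobes and genotypes, as log2 fold change with a standard error derived from the edgeR F statistic (2 libraries against 2). Filled points were called and open points were not, and no point is drawn where a group holds 0 or 1 estimated counts. Every drawn value lies above 0, and Gh lies nearest to 0 in 3 of the 4 panels.

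The amount left in GFP-positive cells differed from hormone to hormone. For each preparation (a lobe, genotype and replicate number), the GFP-positive TPM was set as a percentage of the GFP-negative TPM. Libraries were matched by number for this, and no source states that they came from 1 dissociation. In the anterior pituitary the summed hormones stood at a median of 10.5% (6.75 to 15.6%, n = 4). Prl stood at a median of 3.02% (1.80 to 6.20%) and Pomc at 2.62% (1.42 to 4.84%). Gh stood at 103% and 61.5% in WT and at 46.5% and 18.7% in stabilized mice, so the genotypes did not overlap, but the interaction of fraction and genotype did not pass for Gh in this lobe (2.23 ± 1.69 on the log2 scale, edgeR adjusted p = 0.92). TPM and counts differed for Gh in stabilized mice. The mean TPM values gave 28.2%, while scaled counts were 6.78-fold higher in GFP-negative cells. The lowest Gh percentage lay above the highest one of Prl or Pomc.

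The glycoprotein hormone genes lay between these. Cga stood at a median of 19.2% (8.20 to 37.4%), Lhb at 13.2% (9.84 to 19.0%), Fshb at 10.1% (8.39 to 37.5%, with both WT values above both stabilized ones) and Tshb at 6.95% (4.81 to 25.7%). Pou1f1, the factor of the somatotrope, lactotrope and thyrotrope lineages, stood at 6.34% (2.52 to 10.0%). Nr5a1 stood at 4.99%, with a range of 3.56 to 58.8% that rests on WT replicate 1. Tbx19 was listed at 0 in both WT GFP-positive libraries and at 0.871 and 0.0973 TPM in the stabilized ones, a median of 0.348%.

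**Figure D3:**
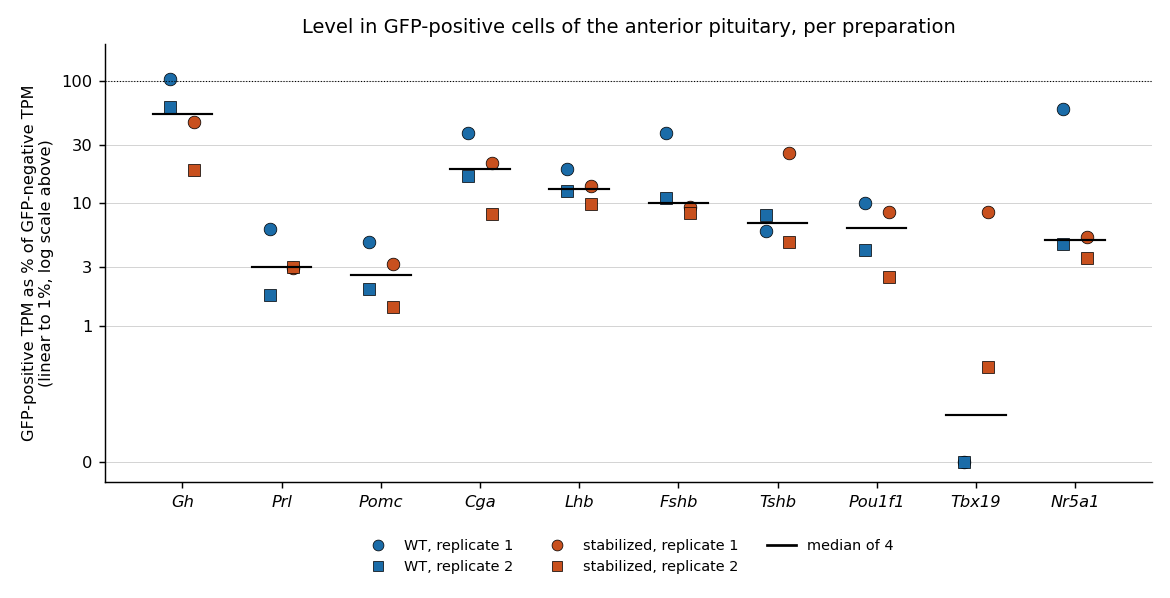
GFP-positive TPM as a percentage of GFP-negative TPM in the anterior pituitary, for each gene and each of the 4 preparations; the axis is linear to 1% and logarithmic above, and the bar is the median. Gh sits between 18.7 and 103%, Prl and Pomc at 6.20% and under.

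The mix of hormone RNA was compared as the share of each hormone in the summed TPM of the 7. In the anterior GFP-negative cells Prl took 71.5% and 75.1% in WT and 49.5% and 40.6% in stabilized mice, and Gh took 8.24% and 7.68% and 22.0% and 23.8%. In the anterior GFP-positive cells Gh took 54.1% and 65.0% in WT and 74.6% and 65.8% in stabilized mice, and Prl took 28.3% and 18.6% and 10.8% and 18.3%. By TPM, Gh was thus the leading hormone RNA in every GFP-positive library and Prl in every GFP-negative library of this lobe. In estimated counts summed over both libraries, stabilized GFP-negative cells held more Gh than Prl (1201559 against 1066526). These are shares of RNA and not of cells.

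Over both lobes and genotypes, the mean share of Gh was 7.72% in GFP-negative and 32.9% in GFP-positive libraries (exact permutation test within lobe and genotype, two-sided, adjusted p = 0.0054 over the 7 hormones). The share of Pomc was 59.1% against 51.3% (exact permutation test, adjusted p = 0.0054), and that of Cga 2.83% against 5.12% (exact permutation test, adjusted p = 0.0252). Without the library whose labels conflict, the Cga difference no longer passed (exact permutation test, adjusted p = 0.0918). The shares of Prl (29.7% against 9.75%, adjusted p = 0.0918), Fshb, Lhb and Tshb did not pass in exact permutation tests.

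**Figure D4:**
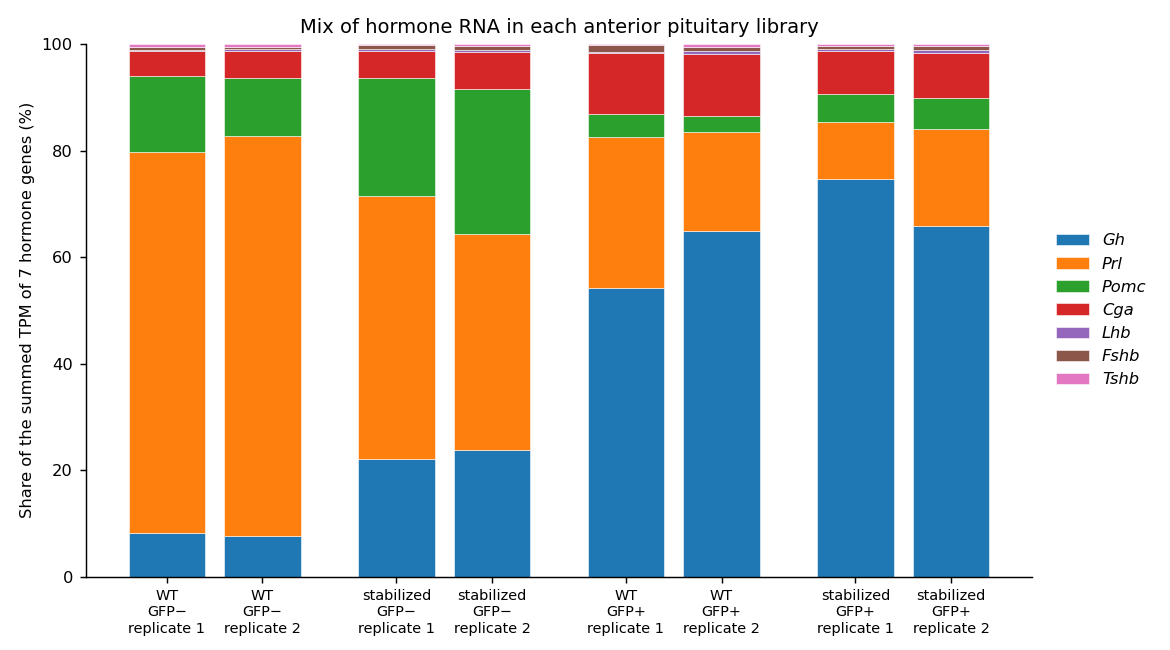
Share of each of the 7 hormone genes in their summed TPM, as 1 bar for each anterior pituitary library. Prl is the largest part of the 4 GFP− bars and Gh of the 4 GFP+ bars, with Gh larger in stabilized than in WT GFP− bars.

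The mix also differed by genotype. The Gh share was 23.7% in stabilized and 16.9% in WT libraries over both lobes and fractions (exact permutation test within lobe and fraction, two-sided, adjusted p = 0.0216). From estimated counts in place of TPM it was 28.9% against 17.8% (exact permutation test, adjusted p = 0.0216). In the anterior pituitary both stabilized libraries lay above both WT libraries in each fraction, but in GFP-positive cells the nearest values were 65.8%, from the library whose labels conflict, and 65.0%. In those cells Gh itself was level between the genotypes (a stabilized to WT ratio of scaled counts of 0.999), while the ratio was 0.355 for Prl and 0.555 for Cga, and none of the 3 passed the test. Without the library whose labels conflict, the Gh difference no longer passed (7.92 percentage points, exact permutation test, adjusted p = 0.216). The Prl share was 15.1% against 24.3% (exact permutation test, adjusted p = 0.211) and the Pomc share 56.7% against 53.7% (exact permutation test, adjusted p = 0.367). Cga, Lhb, Fshb and Tshb did not pass either. In the anterior GFP-negative cells, where the shift in Gh was seen, the summed TPM of 5 erythrocyte genes also differed, at 814 and 1169 in WT and 11642 and 4840 in stabilized mice; 0 of these 5 genes were called by edgeR, none was at 0 in any of these libraries. Other lists also moved there without overlap between the genotypes, as summed TPM. The 6 immediate early genes stood at 1428 and 1840 in WT and 778 and 603 in stabilized mice, the 9 genes of prohormone processing and secretory granules at 8439 and 9998 and at 3465 and 4914, and the 6 mural genes at 19.6 and 17.5 and at 64.3 and 48.5. The 9 receptors of hypothalamic signals stood at 56.3 and 77.8 and at 39.8 and 49.0, the 11 further lineage factors at 191 and 228 and at 96.0 and 172, the 5 melanotrope genes, which Pomc leads, at 6237 and 6670 and at 7504 and 16382, and the 8 pituicyte genes at 19.7 and 14.0 in WT and above both values in each stabilized library, with 27.9 as the highest. Of each of these 7 lists 0 genes were called, where 0.0281% of all genes were, and the mural genes Acta2 and Cspg4 were at 0 in WT replicate 1. The part of these lists in the shift was not tested.

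Single genes showed no call for genotype in any of the 4 pituitary fractions (0 of 10 by edgeR in each). The share of all genes called, in either direction, was 0.0281% in anterior GFP-negative, 0.394% in anterior GFP-positive, 0.596% in posterior GFP-negative and 0.98% in posterior GFP-positive cells. No share of all genes at an unadjusted p is given, and the shares beside DESeq2 are of its own calls. In anterior GFP-negative cells 0 of the 10 had an unadjusted edgeR p under 0.05 and DESeq2 called 0, against 1.61% of all genes. Gh differed there by 2.25 ± 1.24 on the log2 scale with stabilized higher (edgeR adjusted p = 0.827), Pomc by 0.99 ± 1.17 (edgeR adjusted p = 1) and Prl by -0.96 ± 0.82 (edgeR adjusted p = 0.962). With no filter on low counts, Gh (2.28, edgeR adjusted p = 5.21e-10) and Pomc (1.02, edgeR adjusted p = 0.00555) passed, and the share of all genes called was 1.16%.

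In anterior GFP-positive cells 1 gene had an unadjusted p under 0.05, Tbx19, listed at 0 in both WT libraries, and DESeq2 called it, against 3.97% of all genes. In posterior GFP-negative cells 2 genes did, Prl and Tshb, and DESeq2 called Prl, against 4.92% of all genes. Prl stood at 120 and 119 TPM in WT and 26.1 and 2.52 TPM in stabilized mice there (-3.00 ± 0.88, edgeR adjusted p = 0.195). Beside it, 3 of 6 mural, 2 of 10 endothelial and 1 of 5 erythrocyte genes were called higher in the stabilized libraries. As summed TPM in WT and stabilized libraries, the mural genes stood at 15.5 and 3.66 against 39.3 and 15.3, and the erythrocyte genes at 190 and 9.37 against 2675 and 1147. The endothelial genes stood at 4.84 and 35.3 in the stabilized libraries, and both WT libraries lay below these. The erythrocyte gene Hba-a1 was at 0 in both WT libraries. Other lists, with 0 genes called in each, were lower in both stabilized libraries. The immediate early genes stood at 1689 and 1447 in WT against 640 and 415, the secretory genes at 4429 and 4925 against 2052 and 2004, the receptors at 87.8 and 158 against 41.4 and 31.0, and the further lineage factors at 96.7 and 129 against 32.6 and 27.4. The 6 neuron genes stood at 315 and 455 against 272 and 207 and the 4 stem and folliculostellate genes at 33.3 and 51.1 against 18.5 and 22.9, and the melanotrope sum, nearly all Pomc, was also lower. Their part in the Prl difference was not tested. In posterior GFP-positive cells 1 gene did, Fshb, and DESeq2 called 0, against 7.21% of all genes. Of 8 leukocyte genes, 1 was called higher in stabilized anterior and 4 in stabilized posterior GFP-positive cells, with a summed level of 9.61 and 6.32 TPM in WT and 140 and 213 TPM in stabilized anterior libraries, and of 10.3 and 0.848 TPM in WT and 215 and 176 TPM in stabilized posterior libraries. The 6 immediate early genes, of which 0 were called, stood at 2196 and 3043 TPM in WT and 684 and 501 TPM in stabilized anterior libraries, and at 1892 and 601 TPM and 212 and 198 TPM in the posterior ones. In the posterior GFP-positive libraries the mural sum was 139 and 72.2 TPM in WT and 49.0 and 37.9 TPM in stabilized mice, and the endothelial sum 6695 and 4391 TPM and 2534 and 2329 TPM, with 0 genes called in either list. The secretory sum was 613 and 442 TPM in WT and 421 and 356 TPM in stabilized anterior libraries (0 of 9 called), and 245 and 48.8 TPM and 548 and 526 TPM in the posterior ones (1 called higher in stabilized mice). The further lineage factors and the neuron genes were lower in both stabilized libraries of each lobe and the pituicyte genes higher in those of the anterior lobe, with 0 genes called. The part of these lists in the levels of the hormone genes was not tested.

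The posterior lobe carried almost only Pomc. In its GFP-negative cells Pomc stood at 53738 and 55689 TPM in WT and 27436 and 41280 TPM in stabilized mice, above every anterior library, and summed hormone RNA took 5.40% and 5.59% of the library in WT and 2.76% and 4.13% in stabilized mice. Pomc made up at least 95.3% of the hormone RNA in each of the 8 posterior libraries, the lowest being that of stabilized GFP-positive replicate 1. Tbx19, the factor of the Pomc lineages, stood at 47.6 and 119 TPM in WT and 28.6 and 25.3 TPM in stabilized GFP-negative cells, also above every anterior library. In estimated counts the same 4 libraries held 5505 and 5047 in WT and 3875 and 3695 in stabilized mice, and after scaling Tbx19 differed by -0.23 ± 1.19 on the log2 scale (edgeR adjusted p = 1), so the gap between the genotypes seen in TPM was not found by the count test. Prl was at 2.52 to 120 TPM, Cga at 9.62 to 117 TPM and Gh at 0.687 to 12.8 TPM in the posterior GFP-negative libraries.

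In the WT posterior lobe 7 of the 10 genes were called higher in GFP-negative cells, against 7.46% of all genes in that direction. Pomc differed by 5.77 ± 1.42 (edgeR adjusted p = 0.00852), Tbx19 by 7.16 ± 1.57 (edgeR adjusted p = 0.00556) and Prl by 5.94 ± 1.02 (edgeR adjusted p = 0.000663). Cga differed by 3.53 ± 1.14 (edgeR adjusted p = 0.047). Lhb (335 counts), Tshb (113 counts) and Nr5a1 (475 counts) had 0 counts in both GFP-positive libraries, and were at least 97.8-fold, 33.0-fold and 139-fold higher in GFP-negative cells when set against 3 counts over the group. Lhb rested on GFP-negative replicate 1 (15.9 TPM, with 0 in replicate 2) and Tshb on replicate 2 (1.07 TPM, with 0 in replicate 1). With only the 4 libraries compared, 2 of the 10 genes were called, against 8.97% of all genes in either direction. Fewer were also called in limma.

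With genes at 0 set at their bound, the median of the 10 genes was 5.41, beside 0.00 over all genes tested. When 1 library was left out, these low genes and Cga were less stable than Pomc, Tbx19 and Prl. Without GFP-negative replicate 1 the edgeR adjusted p was 1 for Lhb and 0.0774 for Cga, and without GFP-negative replicate 2 it was 1 for Tshb. Without GFP-positive replicate 1 it was 0.123 for Lhb, 0.128 for Tshb and 0.0703 for Nr5a1. Without GFP-positive replicate 2 it was 0.0956 for Lhb, 0.0907 for Tshb, 0.0594 for Nr5a1 and 0.0893 for Cga. Prl, Pomc and Tbx19 passed without any single library.

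In the stabilized posterior lobe 5 genes were called, against 5.05% of all genes in that direction. Pomc differed by 6.98 ± 1.5 (edgeR adjusted p = 0.00424), Tbx19 by 6.33 ± 1.51 (edgeR adjusted p = 0.0127), Cga by 5.04 ± 1.24 (edgeR adjusted p = 0.0132) and Fshb by 5.37 ± 1.47 (edgeR adjusted p = 0.0244). Nr5a1 had 109 counts against 0 and was at least 33.3-fold higher (edgeR adjusted p = 0.0438). Tshb was at 0 in all 4 libraries. Prl differed by 2.53 ± 0.89 and did not pass (edgeR adjusted p = 0.0863). The calls of Cga (0.0784), Fshb (0.144) and Nr5a1 (0.709) were lost without GFP-negative replicate 1, those of Fshb (0.0985) and Nr5a1 (0.209) without GFP-positive replicate 2, and that of Nr5a1 (0.196) without GFP-positive replicate 1, as edgeR adjusted p-values.

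The trace left in posterior GFP-positive cells was again mostly Pomc, at 3307 and 470 TPM in WT and 330 and 800 TPM in stabilized mice. As a share of the GFP-negative level this was a median of 1.57% (0.844 to 6.15%, n = 4), and Tbx19 stood at 1.28% (0 to 2.46%). Gh did not pass in either genotype. It was at 12.8 and 0.687 TPM in WT GFP-negative and 9.69 and 0.190 TPM in WT GFP-positive cells, and at 11.1 and 3.08 TPM and 11.0 and 4.33 TPM in stabilized cells. The direction of its difference turned with the libraries used (1.19 and 0.22 on the log2 scale, and -2.55 without WT GFP-negative replicate 1).

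Between the lobes, Prl was called higher in the anterior lobe in all 4 comparisons and Gh in 3. In WT GFP-negative cells Gh was 9.22 ± 1.69 (edgeR adjusted p = 0.0121), Prl 8.11 ± 1.11 (edgeR adjusted p = 0.00181) and Pou1f1 6.25 ± 1.36 (edgeR adjusted p = 0.0273) higher in the anterior lobe on the log2 scale, 3 of 10 genes called against 0.694% of all genes in that direction. In WT GFP-positive cells Gh (9.97 ± 1.75, edgeR adjusted p = 0.00906), Prl (9.19 ± 1.17, edgeR adjusted p = 0.00107) and Cga (6.20 ± 1.29, edgeR adjusted p = 0.0325) were called, against 0.352%. In stabilized GFP-negative cells Gh (10.22, edgeR adjusted p = 0.0456) and Prl (10.16, edgeR adjusted p = 0.00225) were called, against 0.0469%. In stabilized GFP-positive cells Prl (7.33, edgeR adjusted p = 0.00603) and Cga (7.21, edgeR adjusted p = 0.0435) were called, against 0.15%. Pomc went the other way without passing, at -3.46 in WT GFP-negative cells (edgeR adjusted p = 0.274) and -2.74 in WT GFP-positive cells (edgeR adjusted p = 0.439). The lobe calls of Pou1f1 (0.116, without WT posterior GFP-negative replicate 2), of Gh in stabilized GFP-negative cells (0.0811, without posterior replicate 2) and of Cga in stabilized GFP-positive cells (0.108 and 0.0845, without posterior replicate 1 or 2) were lost when 1 library was left out. The study separated the lobes of the same pools of mice, but no source ties the replicate numbers of the libraries to a pool. With the replicate number as a block, Gh in stabilized GFP-negative cells no longer passed (10.44, edgeR adjusted p = 0.0506), and the other lobe calls were kept.

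Lists of other cell types differed between the lobes too, as summed TPM in the anterior against the posterior libraries. Of all genes, 1.04% were called in either direction in WT GFP-negative and 0.718% in WT GFP-positive cells. In stabilized GFP-negative and GFP-positive cells these shares were 0.0563% and 0.206%. In WT GFP-negative cells the neuron genes stood at 125 and 156 against 315 and 455 (1 of 6 called lower in the anterior lobe), the erythrocyte genes at 814 and 1169 against 190 and 9.37 (1 of 5 called higher) and the mural genes at 19.6 and 17.5 against 15.5 and 3.66 (3 of 6 called higher). The endothelial genes stood at 10.3 and 27.1, above both posterior libraries (2 of 10 called higher), where Tie1 was at 0 in both. The leukocyte genes stood at 46.3 and 43.1 against 32.8 and 15.8, the pituicyte genes at 19.7 and 14.0 against 30.8 and 73.0, and the stem and folliculostellate genes at 20.7 and 17.7 against 33.3 and 51.1, with 0 called in each. In stabilized GFP-negative cells the neuron, erythrocyte, mural and pituicyte sums differed in these same directions without overlap, with 0 genes called. In WT GFP-positive cells the mural sum was 169 and 195 against 139 and 72.2 (1 of 6 called higher), the immediate early sum 2196 and 3043 against 1892 and 601 and the pituicyte sum 52.4 and 96.6 against 338 and 117. In stabilized GFP-positive cells the mural sum was 229 and 154 against 49.0 and 37.9, the endothelial sum 4474 and 3832 against 2534 and 2329, the immediate early sum 684 and 501 against 212 and 198 and the pituicyte sum 106 and 154 against 302 and 326, with 0 genes called. Neuron sums in GFP-positive cells were at most 10.8 and higher in the anterior lobe. The part of these lists in the lobe differences was not tested.

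Whether the difference between the fractions itself differed was tested as an interaction. In edgeR 0 of the 10 genes passed in any of the 4 interactions, and DESeq2 also called 0, where it called 6.36% and 1.23% of all genes between the lobes (WT, stabilized) and 1.99% and 3.80% between the genotypes (anterior, posterior). Between the lobes, 2 genes had an unadjusted edgeR p under 0.05 in WT (Tbx19 and Nr5a1) and 1 in stabilized mice (Prl). By the stricter rule of an adjusted p and a fold, 0.839% and 0.0563% of all genes were called there. Between the genotypes, 1 had such a p in the anterior (Tbx19) and 2 in the posterior lobe (Prl and Fshb). By the stricter rule, 0.113% and 0.441% of all genes were called there. The share of all genes at the unadjusted cut is not given, so these counts cannot be set against it. Differences between lobes or genotypes in how many genes were called were therefore not shown.

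Other genes of the endocrine lineages were read from lists. Of 11 further lineage factors, 3 were called higher in GFP-negative cells of the WT anterior, 2 of the stabilized anterior, 5 of the WT posterior and 6 of the stabilized posterior lobe, where 5.87%, 3.16%, 7.46% and 5.05% of all genes were. The medians were 3.49, 4.27, 3.10 and 6.13 on the log2 scale beside 0.03, 0.20, 0.00 and 0.13 over all genes. Many of these factors had no count in 1 of the groups, and with such genes set at their bound (3 counts over the group) the posterior medians were 0.22 in WT and 3.20 in stabilized mice. Pitx1, a homeobox factor of the early pituitary, rose in 3 comparisons, with 3.74 to 21.6 TPM in GFP-negative and 0 to 1.10 TPM in GFP-positive libraries. Insm1, a zinc-finger factor of neuroendocrine cells, and Lhx3, a LIM homeobox factor of the gland, rose in the posterior lobe of both genotypes. Insm1 stood at 12.6 to 72.9 against 0 to 3.33 TPM, and Lhx3 at 2.51 to 15.3 against 0 to 2.34 TPM. Gata2 and Foxl2, which gonadotropes and thyrotropes use, went the other way and were called lower in GFP-negative cells of both posterior groups. Gata2, which is also expressed in ECs, stood at 0.0617 to 9.02 TPM in GFP-negative and 6.66 to 33.8 TPM in GFP-positive libraries, and Foxl2 at 0 to 2.14 against 1.18 to 11.0 TPM.

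Of 9 receptors through which hypothalamic signals reach endocrine cells, 4 were called higher in GFP-negative cells of the WT anterior, 1 of the stabilized anterior, 4 of the WT posterior and 4 of the stabilized posterior lobe, beside the same 5.87%, 3.16%, 7.46% and 5.05% of all genes, and 0 were called lower. The medians were 5.46, 4.81, 7.19 and 8.14, beside 0.03, 0.20, 0.00 and 0.13 over all genes, or 4.77, 3.68, 5.32 and 4.92 with genes at 0 set at their bound. Drd2, the dopamine receptor of lactotropes and melanotropes, rose in all 4 comparisons, at 9.03 to 138 against 0 to 1.78 TPM. Gnrhr, the receptor of gonadotropes for GnRH, stood at 0.287 to 35.1 against 0 to 9.13 TPM and rose in both posterior groups. Avpr1b, the vasopressin receptor of corticotropes, rose in 3 comparisons, at 0.123 to 9.07 against 0 to 0.889 TPM. Trhr, the receptor for thyrotropin-releasing hormone, rose in 2, at 0 to 7.65 against 0 to 0.132 TPM.

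Of 9 genes of prohormone processing and secretory granules, 6, 7, 8 and 8 were called higher in GFP-negative cells of the WT anterior, stabilized anterior, WT posterior and stabilized posterior lobe, against 5.87%, 3.16%, 7.46% and 5.05% of all genes. The medians were 3.99, 4.00, 5.53 and 7.08 beside 0.03, 0.20, 0.00 and 0.13. The granule protein gene Chgb rose in all 4, at 81.1 to 4257 against 0.133 to 178 TPM. Scg5, a chaperone of the convertase PC2, also rose in all 4, at 276 to 1246 against 0.427 to 92.1 TPM. Scg2, a granule protein, rose in 3, at 419 to 1695 against 2.16 to 174 TPM. Cpe, which trims processed prohormones, rose in 3. In stabilized posterior GFP-positive cells Cpe stood at 543 and 514 TPM, against 28.5 to 132 TPM in the 6 other pituitary GFP-positive libraries, and there its difference between fractions did not pass (0.78 ± 0.34, edgeR adjusted p = 0.189).

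All 5 melanotrope genes, of which Pomc and Tbx19 are members of the hormone and lineage set itself, were called higher in GFP-negative cells in all 4 comparisons, against 5.87%, 3.16%, 7.46% and 5.05% of all genes. Pcsk2, which encodes the convertase PC2, stood at 14.0 to 246 TPM in GFP-negative and 0.396 to 5.77 TPM in GFP-positive libraries, and it was highest in the WT posterior lobe. The endothelial list moved in the other direction, with 9, 10, 10 and 10 of 10 genes called lower in GFP-negative cells of the WT anterior, stabilized anterior, WT posterior and stabilized posterior lobe, where 5.46%, 5.14%, 7.08% and 5.48% of all genes were.

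Lists of other cell types were compared between the fractions in the same order. Of all genes, 5.87%, 3.16%, 7.46% and 5.05% were called higher in GFP-negative cells and 5.46%, 5.14%, 7.08% and 5.48% lower. The medians over all genes are those given above. A count of 1 in a list this short is hard to tell from these shares. Of 6 neuron genes, 2, 2, 4 and 3 were called higher in GFP-negative cells and 1 lower (stabilized posterior), with medians of 3.07, 4.24, 5.69 and 6.11 on the log2 scale and a summed level of 125 to 455 against 0.933 to 10.8 TPM. Of these genes Snap25, of vesicle fusion, stood at 104 to 285 TPM in GFP-negative libraries. Gad1, of inhibitory neurons, was at most 0.0688 TPM there and at 0 in 4 of the 8. The levels of the other neuron genes are not printed, and the source of this signal was not tested. Of 8 leukocyte genes, 3, 0, 3 and 0 were called higher and 0 lower, with medians of 4.21, -1.20, 3.08 and -1.64, and a summed level of 11.1 to 89.6 against 0.848 to 215 TPM. Of 4 stem and folliculostellate genes, 1, 1, 1 and 2 were called higher, with a summed level of 16.8 to 51.1 against 0.656 to 12.8 TPM. Of 6 mural genes, 2, 1, 3 and 1 were called lower and 1 higher (WT anterior). Of 5 erythrocyte genes 2 were called lower, both in the WT posterior lobe, and of 6 immediate early genes 1 was called higher, in the stabilized posterior lobe. Of 8 pituicyte genes, 0, 1, 1 and 1 were called higher and 1 lower in each. Their summed level was 14.0 to 73.0 TPM in GFP-negative and 52.4 to 338 TPM in GFP-positive libraries, with medians of 29.3 and 135 TPM. This sum is therefore not read as a level of pituicytes in GFP-positive cells. The part of these lists in the differences of the members was not tested.

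The genes outside the members most like each of them were named by the Pearson correlation of log2(TPM + 1) over the 16 pituitary libraries. Genes tested with a mean of at least 1 TPM were ranked. The members themselves were left out of this ranking, and some had higher values with each other than the genes named here. These libraries share lobe and fraction, which alone can give high values. For Prl these were Nnat (0.96), Dlk1 (0.96) and Gnrhr (0.95), and for Pomc they were Slitrk6 (0.97), Pcsk2 (0.97) and Pdyn (0.96). For Tbx19 they were Rab27b, Drd2 and Baiap3 (0.98 each), and for Gh they were Gas1 (0.87), Igfbp5 (0.87) and Kcna5 (0.85), the lowest set of the 10. Outside the members, Cga was most like Dlk1 (0.97), Egr2 and Gnrhr (0.92 each), Lhb like Nnat (0.93), Dlk1 and Gnrhr (0.90 each), and Fshb like Dlk1 (0.93), Nnat and Ctxn3 (0.92 each). Tshb was most like Chrnb3 (0.97), Ctxn3 (0.96) and Arhgap36 (0.94), Pou1f1 like Ctxn3 (0.97), Chrnb3 and Neurod4 (0.96 each), and Nr5a1 like C2cd4b (0.95), Scn8a and Synpr (0.93 each).

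Among the members, Cga and Fshb had a Pearson correlation of 0.96 over the same 16 libraries and Pomc and Tbx19 one of 0.95. Gh and Pomc had the lowest, at -0.27. Gh had its highest values with Tshb (0.91), Lhb (0.90) and Prl (0.89), followed by Fshb (0.88) and Cga (0.87). Its values with Tshb, Lhb, Prl and Fshb lay above that with Gas1, its most similar gene outside the members.

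ATAC-seq, which reads open chromatin, gave almost no peak at the promoters of these genes in GFP-positive cells. A peak that passed 2 in both its enrichment (fold) and its -log10 q in the authors' lists, within 1 kb of an annotated start and in both replicates, was found for 0 of the 10 genes in WT and stabilized cerebellum, in stabilized anterior pituitary and in WT and stabilized posterior pituitary. Of 21817 protein-coding genes, 50.8%, 54.1%, 58.6%, 51.2% and 54.5% had such a peak in these groups. In WT anterior pituitary it was found for 1 of 10, Nr5a1, against 58.1% of protein-coding genes. Of the 10 endothelial genes, 9 or 10 had a peak in each group.

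The Nr5a1 peaks were weak, with fold enrichments of 3.36 at chr2:38711990-38712252 and 2.82 at chr2:38711670-38711954 in the 2 WT replicates. In the stabilized anterior pituitary a peak at chr2:38712019-38712253 (fold enrichment 4.80) was present in replicate 2 only. Pomc had a stronger peak inside the gene, far from its annotated start, in all 12 ATAC libraries. In the first WT anterior library it lay at chr12:3959672-3960544, a distance of 4702 bases from the nearest start, with a fold enrichment of 15.7. Its fold enrichment ran from 9.37 in WT posterior replicate 1 to 20.8 in stabilized anterior replicate 1, and was 11.8 in WT cerebellum replicate 1. Gh, Prl, Cga, Lhb, Fshb, Tshb, Pou1f1 and Tbx19 had no peak within 5 kb of a start in both replicates of any group. The ATAC-seq and RNA libraries are separate samples.

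Outside the pituitary, Tshb, Fshb, Tbx19 and Nr5a1 stayed under 1 TPM in each of the 8 sorted cerebellum and 16 RiboTag libraries. Over the 4 WT cerebellum libraries Pomc stood at 3.01 to 28.1 TPM and Prl at 1.14 to 10.6 TPM, and Gh at 0.116 to 2.23 TPM. In the 4 stabilized cerebellum libraries Prl and Gh were listed at 0 and Pomc stood at 0.0561 to 13.8 TPM. In cortex RiboTag libraries Pomc stood at 2.23 to 25.4 TPM in WT and 0.578 to 4.12 TPM in stabilized mice, and the input and bound values overlapped. In the WT cortex libraries Prl reached 5.70 TPM and Pou1f1 1.39 TPM, each in 1 library only at 1 TPM or more. Cga reached 1.34 TPM in 1 stabilized cortex library and 2.25 TPM in 1 stabilized choroid plexus library, and was at 0 in the other 3 of the latter. The Pomc levels lie far under the 133 TPM of Pomc in the lowest anterior GFP-positive library. Lhb stood at 5.28 to 8.39 TPM in WT and 2.57 to 5.81 TPM in stabilized choroid plexus RiboTag libraries, all 8 of them, against 0 to 0.0837 TPM in the 8 cortex RiboTag libraries. Lhb overlaps Ruvbl2, which lies on the opposite strand.

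**Figure D5:**
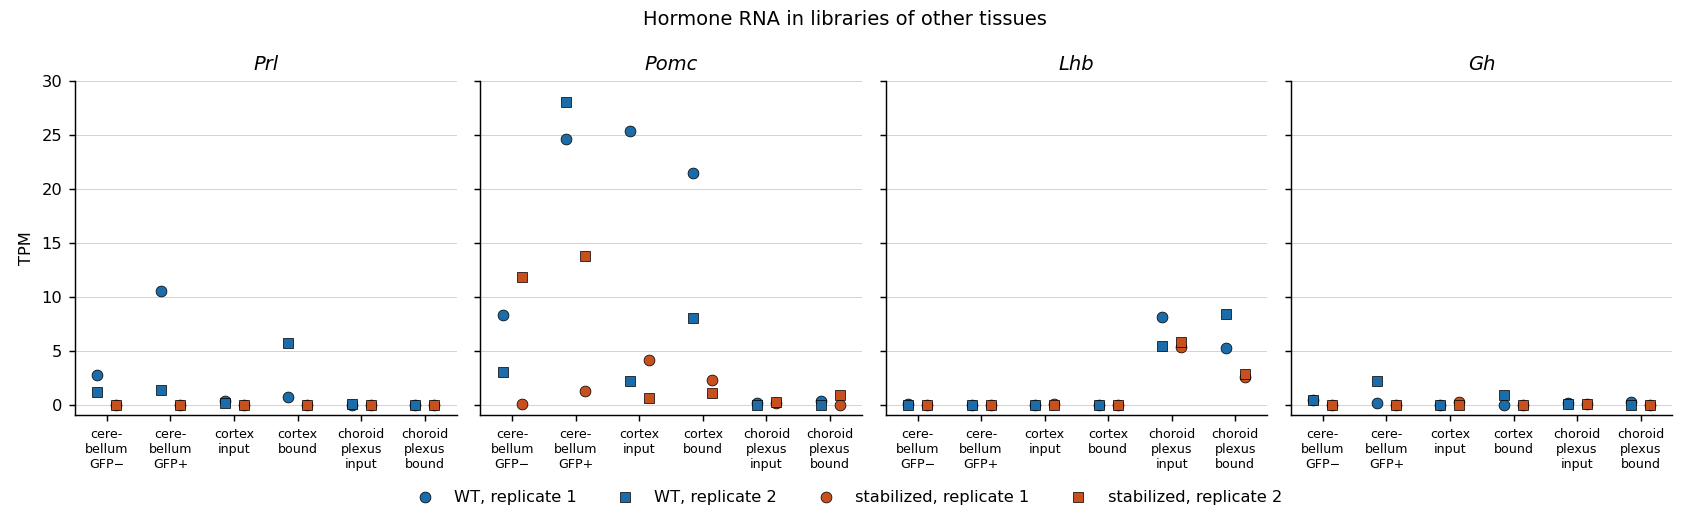
TPM of Prl, Pomc, Lhb and Gh in the sorted cerebellum and RiboTag libraries, on a linear axis, with colours for genotypes and point shapes for replicates. Pomc reaches 28.1 TPM in WT cerebellum GFP+ cells and Lhb is at 2.57 TPM or more in choroid plexus and at most 0.0837 TPM in cortex.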

How the data were processed

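Sorted and RiboTag RNA was sequenced as single-end reads, and the authors quantified it with Salmon 0.10.2 against Ensembl transcripts of GRCm38. The deposited values are estimated counts and TPM per transcript, which were summed per gene here with GENCODE names. Salmon gives estimates that need not be whole, and the summed estimated counts were rounded for the count test. How reads of overlapping genes and near-identical transcripts are split rests on Salmon. For ATAC-seq, the authors aligned reads with Bowtie2 2.3.2 and called peaks per library with MACS2. The deposited peak lists give a fold enrichment (a ratio over background) and a −log10 q-value for each peak. The authors' processing notes also name kallisto 0.44.0.

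Estimated counts were tested with edgeR 4.0.16 (TMM scaling, quasi-likelihood, 1 coefficient per group over 24 sorted libraries, genes passing filterByExpr). Calls required a Benjamini-Hochberg adjusted p below 0.05 together with a change of 2-fold or more. DESeq2 1.42.0 and limma 3.58.1 on log2(TPM + 1) were alternatives. Hormone sums and shares were compared with exact permutation tests that exchange libraries within lobe and genotype, or within lobe and fraction. A group at 0 was set against a floor of 3 counts, which covers counting error only. The edgeR procedure was tested on simulated data for the WT anterior comparison of fractions over 21324 genes: of 50 genes changed at each size, 0 were recovered at 2-fold, 9 at 4-fold, 20 at 8-fold and 20 at 16-fold, so a missed call says little at any of these sizes. The genes and lists were chosen with earlier results of these data known. All 10 members are named. The lists of other cell types and of immediate early genes are given as counts and sums, with few genes named. For further lineage factors, receptors, secretory genes and melanotrope genes, the rule was to name the 4 of each highest in mean GFP-negative TPM. Genes of these lists called lower were to be named too, and for each member the 3 most similar genes outside the 10. An item that this rule would name is not reported here.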

Additional observations from a re-analysis of the deposited data

Results flagged for a closer look

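Signal for hormone genes appeared in libraries outside the pituitary comparisons. Lhb had a median of 5.42 TPM over the 8 choroid plexus RiboTag libraries, against at most 0.0837 TPM in cortex. Pomc had a median of 10.1 TPM over the 8 sorted cerebellum libraries and of 3.21 TPM over the 8 cortex RiboTag libraries. The sources of these levels were not tested.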

How the results depend on the processing

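The counts of members called depended on the model. With no filter on low counts they were 8 and 9 in the anterior (WT, stabilized) comparisons of fractions, 2, 2, 4 and 4 for genotype (anterior GFP-negative and GFP-positive, posterior GFP-negative and GFP-positive) and 9, 10, 8 and 8 for lobe (WT GFP-negative and GFP-positive, stabilized GFP-negative and GFP-positive). With only the 4 libraries compared they were 7, 10 and 2 for fractions (WT anterior, stabilized anterior, WT posterior) and 6 for lobe in WT GFP-negative and both stabilized fractions. DESeq2 gave 1 each for genotype in anterior GFP-positive and posterior GFP-negative cells, and 6, 7, 5 and 4 for lobe. limma on log2(TPM + 1) gave 5, 4 and 3 for fractions (WT anterior, WT posterior, stabilized posterior), 1 for genotype in posterior GFP-negative cells and 8, 7, 7 and 5 for lobe. With 0.1 added it gave 5, 4 and 3 for fractions, and 5, 4 and 4 for lobe in WT GFP-negative, stabilized GFP-negative and stabilized GFP-positive cells. limma shifted the median of all genes by -0.62 to 0.58. The settings also differed in how many of all genes they called. That share, in either direction, was 8.29 to 14.5% for fractions, 0.0281 to 0.98% for genotype and 0.0563 to 1.04% for lobe as reported. It was 9.03 to 13.4%, 1.16 to 3.41% and 1.07 to 3.33% with no filter, 12.8 to 22.3%, 0.19 to 4.41% and 0.36 to 2.91% in limma with 1 added, 10.7 to 21.9% for fractions and 0.149 to 2.27% for lobe with 0.1 added, 8.97 to 28.7% for fractions and 0.418 to 3.39% for lobe with 4 libraries, and 1.61 to 7.21% for genotype and 1.07 to 7.52% for lobe in DESeq2.

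Leaving out 1 library gave 2 to 3, 2 to 4, 3 to 6 and 2 to 7 members called for fractions (WT anterior, stabilized anterior, WT posterior, stabilized posterior), 0, 0 to 1, 0 to 1 and 0 for genotype, and 3 to 5, 3 to 5, 1 to 4 and 1 to 4 for lobe, where at least 3.9%, 0.0547 to 2.14% and 0.0125 to 2.45% of all genes were called. The Gh difference between posterior fractions turned, to -2.55 without WT GFP-negative replicate 1 (range -2.55 to 5.01 over single WT libraries left out), to -0.77 and -0.33 without stabilized GFP-negative replicate 1 or GFP-positive replicate 2 (range -0.77 to 1.02), and to -0.19 and -0.23 in limma. Without replicate 1 or 2 the fold of summed hormones was 15.6 to 33.3, the genotype difference in Gh share 4.37 to 9.28 points (7.92 without the library whose labels conflict), and the fraction differences in share -26.3 to -25.0 for Gh (the library whose labels conflict included), 7.65 to 7.92 for Pomc and -2.57 to -2.02 for Cga (-2.24 without that library). With replicate 1 or 2 left out none of these can pass, since 1 library per group allows no exact permutation p under 0.125. The Fshb share for genotype turned to 0.025 without replicate 1 (-0.181 without replicate 2) and 0.0545 from estimated counts, and the Lhb share for fractions to 0.00374 without replicate 2 (-0.103 without replicate 1). Within 5 kb of a start, members with a peak numbered 1 in both cerebellum and both posterior groups and 2 in both anterior groups, against 54.3 to 62.7% of protein-coding genes; at a fold enrichment over 4, WT anterior had 0 (55.3% of genes), and without replicate 1 stabilized anterior had 1 (59.7% of genes).

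No source ties like-numbered libraries to 1 pool, and the correlation of their deviations was -0.0474 to 0.133 between fractions and -0.00972 to 0.249 between lobes. With the replicate block, members called for lobe in stabilized GFP-negative cells fell to 1 (0.0375% of all genes called), and with the block within each preparation 5 were called in the WT anterior comparison of fractions (9.95% of all genes). Tbx19 in the stabilized anterior pituitary had an edgeR adjusted p of 0.052 with the replicate block. Over the settings, the results of the members called, of Gh between fractions, and of Gh, Prl and Pomc for genotype in anterior GFP-negative cells stayed on their side of the threshold and in their direction in 426 cases, lost a call in 47, gained one in 6 and turned in 5. The 426 cases include results that were never called. For the members called alone, the call was kept in 342 cases and lost in 47.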
